A study of Mus musculus with 40 samples.

Results

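Endothelial cells line the blood vessels, and 10 genes that mark them were followed here: Pecam1, Cdh5, Kdr, Tek, Tie1, Flt1, Vwf, Cldn5, Esam and Emcn. They were chosen by name, as the probes whose symbol on the array is one of the 10. The rule uses no measured value, though the list was drawn up with earlier results of these data known. They account for 10 of 29411 gene symbols and 13 of 40628 probes. Esam was found under its older symbol Esam1. The material was RNA of subcutaneous stromal vascular cells (SVCs), the cells that remain of digested fat once the adipocytes are taken away, from C57BL/6J mice that were put on their diets after weaning, at 3 to 4 weeks of age. The series text calls the same material infiltrating macrophages. LFC mice received a low-fat control diet and HFC mice a high-fat diet with added sucrose. The HF5, HF20 and HF75 mice received the HFC diet together with 5 µg, 20 µg or 75 µg of the plant formulation Kal-1. Each diet and time point had 1 one-colour array, with 11 arrays each for LFC (days 1, 6, 10 and 14 and weeks 0, 3, 6, 9, 12, 15 and 18) and HFC (the same times), 6 for HF5 (weeks 3 to 18) and 5 each for HF20 and HF75 (weeks 3 to 15). Weeks were counted after day 14, so week 18 is day 140. The labels do not say how many animals an array holds. The series text speaks of 3 biological replicates, which 1 array per diet and time point does not show, so whether an array stands for 1 repeat or a pool is unknown and p-values measure only the spread between arrays.

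The 10 genes cover different tasks of the vessel wall. Kdr and Flt1 are receptors for vascular endothelial growth factors, Kdr carrying most of the growth signal and Flt1 binding VEGF-A tightly. Tek is the receptor for the angiopoietins, which steady or loosen vessels, and Tie1 is its relative and partner. Cdh5 (VE-cadherin), Cldn5 (a claudin of tight junctions), Esam and Pecam1 (CD31) join endothelial cells to each other, and Pecam1 is also found on leukocytes and platelets. Emcn is a sialomucin of capillary and venous endothelium. Vwf is the clotting factor that endothelial cells store and release, and that megakaryocytes and platelets also carry. Growing fat depends on new capillaries, and endothelial cells are a regular part of the SVCs of fat. In RNA of mixed cells, fewer endothelial cells and less RNA per endothelial cell cannot be told apart.

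Each gene was read by a probe of 60 bases. For Cdh5, Flt1 and Vwf the array carried 2 probes, and their first 30 bases are printed to show that each pair reads different stretches of 1 transcript, the brighter probe first.
Cdh5: acttattataagactctagttctcacagac
Cdh5, second probe: tccgtcaacttcaggaaaatggcttgtcga
Flt1: aagtaaagaaaagctatcgggattctctgg
Flt1, second probe: cctgtattattccgattttaataatctaat
Vwf: caagtgaggcctgtgcagctacagcggatt
Vwf, second probe: ccaaggtgcagtacatcaaagtgggagatt
The array file places Cdh5 on chromosome 8, Flt1 on chromosome 5 and Vwf on chromosome 6. The levels of the 2 probes of a gene correlated over the 38 arrays with r = 0.86 for Cdh5, 0.97 for Flt1 and 0.94 for Vwf, which is a description over arrays that share probes and samples. Below, a gene is described by its brighter probe.

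Promoters are shown for Tie1 and Cldn5. Among the 6 genes with a promoter sequence, they had the most and the fewest matches to the ETS motif described below. The 250 bases before the annotated start, from RefSeq on build GRCm38.p6, were used, and 6 of the 10 genes had such a sequence in the table. Among these 6, the start lies at the edge of the annotated gene for Tie1 and Cldn5 alone. Capitals mark GGAA and its reverse complement TTCC, the core letters bound by the ETS family of transcription factors, which includes the endothelial regulators Erg and Fli1.
Tie1, chr4:118489850-118490099, minus strand: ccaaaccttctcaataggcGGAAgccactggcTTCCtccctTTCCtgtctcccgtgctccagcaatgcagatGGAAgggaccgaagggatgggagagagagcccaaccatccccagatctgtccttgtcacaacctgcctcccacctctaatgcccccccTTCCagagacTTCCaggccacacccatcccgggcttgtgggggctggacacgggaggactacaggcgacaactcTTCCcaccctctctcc
Cldn5, chr16:18776597-18776846, plus strand: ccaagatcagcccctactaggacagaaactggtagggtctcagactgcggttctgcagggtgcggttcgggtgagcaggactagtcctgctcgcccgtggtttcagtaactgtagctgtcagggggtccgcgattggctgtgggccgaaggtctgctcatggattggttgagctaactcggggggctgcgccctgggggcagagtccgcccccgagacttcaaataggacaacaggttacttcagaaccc
The Tie1 sequence held 7 matches on both strands together, and 3.82% of 32851 promoters of the same length held 7 or more. The Cldn5 sequence held 0, as did 6.55% of the promoters. These 4 letters are common (93.4% of promoters have at least 1 match), so a match is a description of the sequence and not a binding site.

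A level here is the log2 intensity of a probe relative to the 75th percentile of its array, so 0 is that percentile and a step of 1 is 2-fold. Of the 38 arrays, 4 stood apart in brightness, outlier spots or the level of the 10 genes. The LFC array of week 3 was dim, with 17.2% of its probes well above background against 53.4% to 87.2% on the 36 arrays other than it and the LFC array of day 14, and only 4 of the 10 genes were detected above background there. The LFC array of day 14 had 9104 outlier spots, against 21 to 780 on those 36 arrays. The LFC array of week 18 and the HF5 array of week 3 were of usual brightness but low in the 10 genes, as described below. Marker content also varied among the other 34 arrays, of which 10 had a mean adipocyte level above 4. On 8 of these 10 the tissue digestion list was under 2, where it was between 3.79 and 5.38 on the 24 arrays left. Median differences that rest on the 4 arrays set apart are given with and without the time points of those arrays. No comparison was fitted without the 10 arrays. Of 379 measured values of the 10 genes, 369 were well above background. The value of Cldn5 on the LFC array of day 10 was lost to an outlier spot, and the Vwf spot was saturated on the LFC and HFC arrays of week 0, so Vwf is a lower bound there.

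On 34 of 38 arrays each of the 10 genes was detected above background, and the genes formed a block that was high on most arrays and low on 2. The mean level of the 10 genes was 2.89 ± 0.56 (SD, n = 11) in HFC, 2.50 ± 0.92 (n = 5) in HF75, 2.16 ± 2.02 (n = 6) in HF5, 1.97 ± 0.74 (n = 5) in HF20 and 1.83 ± 2.08 (n = 11) in LFC. In this order no diet differed from the next by more than their SDs. The wide SDs of LFC and HF5 came with 1 array each. Without the 4 arrays named above the mean was 2.67 ± 0.78 (n = 8) in LFC and 2.95 ± 0.65 (n = 5) in HF5. The heat map of the 38 arrays shows the pattern gene by gene.

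**Figure D1:**
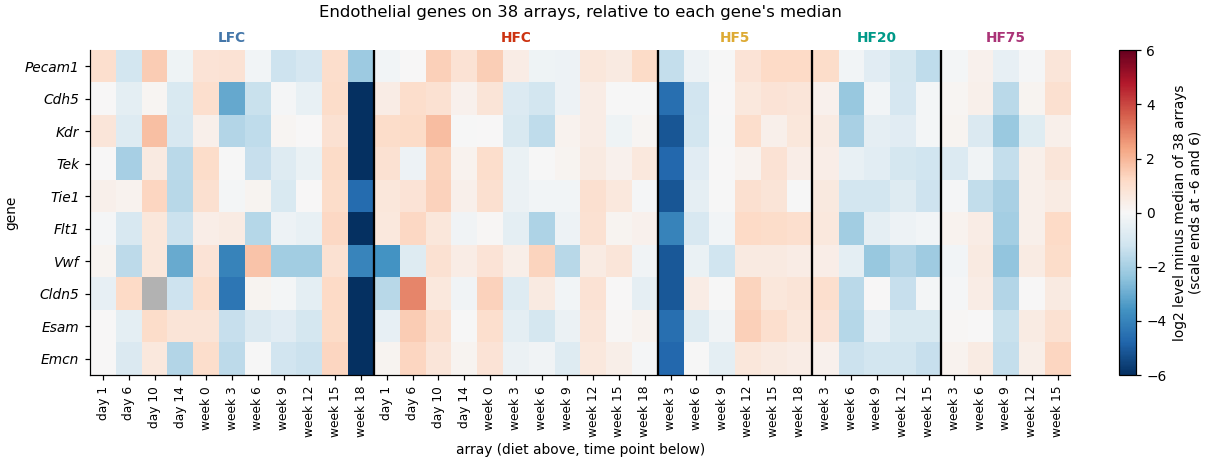
Log2 level of the 10 endothelial genes (rows) on 38 arrays (columns, ordered by diet and time point) minus the median of each gene over the arrays, with the colour scale ending at -6 and 6 and grey for the Cldn5 value lost on the LFC array of day 10. The LFC array of week 18 and the HF5 array of week 3 are low for all 10 genes.

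On the LFC array of week 18, 9 of the 10 genes were lower than on each of the 36 arrays other than it and the HF5 array of week 3. Cdh5 stood at -4.81, where the median of those 36 arrays was 3.24 and the lowest 0.17, the latter from the dim LFC array of week 3. Flt1 stood at -1.68 (median of the others 4.69) and Kdr at -3.65 (median 3.25). Tek, Cldn5 and Emcn were not well above background there, with medians of 0.02, 4.33 and 3.60 on the others. Pecam1, at -1.65, was below the others' lowest value of -0.96 by a smaller step. Vwf was the exception, since its 0.84 lay just above the 0.78 of the dim LFC array of week 3, where it was not well above background. The genes that read low here thus include receptors, junction proteins and the mucin alike.

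On the HFC array of the same week Cdh5 stood at 3.23, Cldn5 at 3.75, Emcn at 3.43 and Tek at 0.60, and all 10 genes were well above background. From the HFC to the LFC array of week 18 all 10 genes were at least 2-fold lower, by 3.34 (Pecam1) to 10.2 (Emcn) on the log2 scale with a median of 6.74, and the values of Tek, Cldn5 and Emcn are lower bounds of the difference. Of 20130 genes measured on this pair, 26.5% were at least 2-fold lower on the LFC array, with a median difference over all of them of -0.04. These are 2 arrays with no replicate, so no test was made, and the pair was singled out after its values were seen.

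Other lists moved on the same array. All 10 genes of a mural list (pericytes and smooth muscle) and 7 of 8 fibroblast genes were lower on the LFC array of week 18 than on all of the 36 others, with means of -4.88 and -4.43, and 6 of 10 mural and 5 of 8 fibroblast genes were not well above background. The adipocyte list, at -4.06, was below the lowest of the others, -0.16. The neutrophil list, at 6.49, and the erythroid list, at 5.26, were above the highest of the others, 3.10 and 4.11. The macrophage list stood at 1.49, within the range of the others (-1.65 to 2.47). Platelet and megakaryocyte genes, which share Vwf with endothelium, stood at -0.24, also within the range of the others (-3.75 to 1.21). Their median over the 38 arrays was -2.52. Defining markers of stromal cells, a usual part of SVCs, were thus mostly near background on an array labelled subcutaneous SVCs. The array is called LFC after its label.

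On the HF5 array of week 3, 9 of the 10 genes were again lower than on each of the 36 others. Tie1 was not well above background, and Tek stood at -4.70 against a median of 0.02. Cdh5 was at -1.30, Cldn5 at -0.78, Emcn at -1.20 and Vwf at -0.27. Pecam1, at -0.88, was the 1 gene within the range of the others. Against the HFC array of week 3, all 10 genes were at least 2-fold lower, by 1.87 (Pecam1) to 5.45 (Vwf) with a median of 4.27. The value of Tie1 is a lower bound of its difference, so whether it exceeded that of Vwf is unknown. Of 20679 genes measured on that pair, 21% were at least 2-fold lower on the HF5 array.

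Here too all 10 mural genes lay below the 36 others, with a mean of -1.70. Fibroblast genes did not fall to background, with a mean of 2.45 (others 2.41 to 5.25). The T cell list was at 2.45, above the highest of the others, 2.06, and 5 of its 6 genes were above all of them. Neutrophil genes were at 2.30 and erythroid genes at 1.32, both within the others' range. The 2 arrays with low endothelial genes thus differed from each other in fibroblast, adipocyte, neutrophil and erythroid genes. The part of the other cell types in these levels was not tested.

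**Figure D2:**
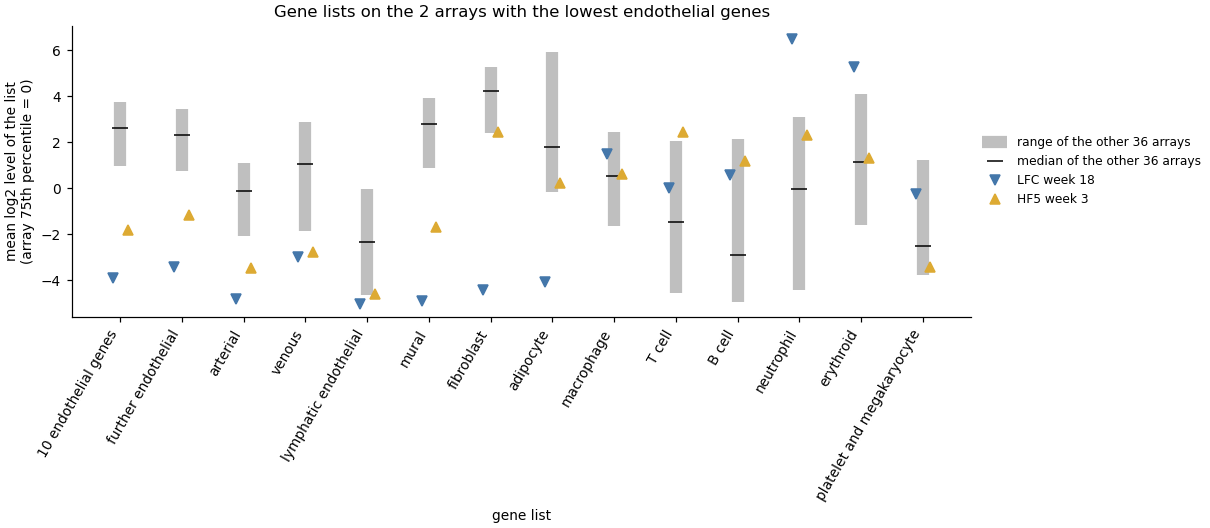
Mean log2 level of 14 gene lists on the LFC array of week 18 and the HF5 array of week 3, with the range (grey bar) and median (line) of the other 36 arrays. Endothelial, arterial and mural lists lie below the grey bars on both arrays, the neutrophil list of the LFC array lies above its bar at 6.49.

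The first comparison of the study is the high-fat against the low-fat diet. With all 11 time points, each of the 10 genes had a higher fitted level in HFC than in LFC, from 0.60 ± 0.38 (SE) for Pecam1 to 1.59 ± 0.87 for Cldn5 on the log2 scale, with a median of 0.98, where the median over all 29215 probes tested was -0.07. The direction was the same relative to all probes after a normexp background correction and after quantile normalization. None of these differences passed limma's test, and 0% of all probes did (adjusted p = 0.941 for each of the 10 genes). At an unadjusted p under 0.05 stood 1 of the 10 genes, Tek, and 2.81% of all probes. With array quality weights the median of the 10 genes was 0.27, and Tek had a limma p of 0.116 unadjusted.

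Tek, the angiopoietin receptor, ranged from -6.79 to 1.15 with a median of -0.41 on the 11 LFC arrays and from -0.41 to 1.31 with a median of 0.24 on the 11 HFC arrays. The ranges overlapped. HFC was higher at 8 of 11 time points, and the fitted difference was 1.32 ± 0.59 (limma p = 0.0437 unadjusted). On the LFC arrays of weeks 3 and 18 Tek was not well above background, so its values there are upper bounds. The direction at week 3, counted here as lower in HFC, is therefore unknown. Cldn5 ranged from -5.98 to 5.48 (median 3.99, 10 arrays) in LFC and from 2.63 to 7.25 (median 4.34) in HFC, and HFC was higher at 7 of 10 time points. Its fit has no value for the LFC array of day 10. Vwf ranged from 0.78 to 6.51 (median 3.25) in LFC and from 1.23 to 6.14 (median 5.25) in HFC, a difference of 1.03 ± 0.63. The lowest Vwf value of HFC, 1.23 on day 1, stood beside 4.97 on the LFC array of that day. Other genes were nearer to even. Flt1, Esam and Pecam1 were each higher in HFC at 6 of 11 time points, Flt1 with a median difference of 0.0007.

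Much of the difference rested on the LFC array of week 18. Without week 18 the median difference of the 10 genes was 0.48, with all 10 still positive (0.26 to 0.76), and Tek was at 0.71 ± 0.33 (limma p = 0.0489 unadjusted, adjusted p = 0.968), alone among the 10 at an unadjusted p under 0.05, against 2.08% of all probes. Without weeks 3 and 18 and day 14 the median was 0.32, and 9 of 10 were positive. At single time points all 10 genes were higher in HFC at day 6 (median 1.75) and week 12 (median 1.41). All 10 were lower at week 15 (median -1.01). The median was -0.02 at week 0 and -0.11 at week 6, with 7 of 10 genes lower at each. The tissue digestion list moved with the genes at 2 of these times, with 0.46 on the LFC and 4.00 on the HFC array of day 6 and -0.85 and 5.11 on those of week 12, and at week 12 the adipocyte list was 4.93 on LFC and 2.16 on HFC. On LFC and HFC in turn, T cell genes were at -0.21 and -2.79 on day 6 and at -4.56 and -1.72 in week 12. B cell genes were at -0.7 and -3.1 on day 6 and at -4.88 and -2.84 in week 12. Epithelial genes were at -4.14 and -1.71 on day 6 and at -5.57 and -1.82 in week 12. At week 15, on LFC and HFC in turn, B cell genes were at -3.59 and 0.11 and T cell genes at -1.52 and 1.02. The tissue digestion list was between 3.79 and 5.38 on both arrays of week 15. Genes of high endothelial venules were there at -3.79 and -0.84, and epithelial genes at 1.04 and -2.66. The part of these lists was not tested. These time points were picked out after their values were seen, and each is 1 pair of arrays. Only the pairs of day 6 and of weeks 0, 3 and 9 shared a slide, and within these 4 slides the median difference was 0.74 with all 10 positive. Without the slide of week 3, which holds the dim LFC array, it was 0.66, again with all 10 positive. The 3 slides then left were uneven, with medians of 1.75 on day 6, 0.36 at week 9 and -0.02 at week 0.

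Other lists also leaned to one side in this comparison. Without week 18, 7 of 8 fibroblast genes were positive in HFC against LFC with a median of 0.43, 8 of 10 mural genes with a median of 0.53 and all 7 genes of a list that responds to tissue digestion with a median of 1.42. Adipocyte genes had a median of -0.06. On the negative side stood all 6 epithelial genes (median -1.04, 2 at an unadjusted p under 0.05), all 4 genes of high endothelial venules (-0.98), 4 of 5 B cell genes (-0.46) and 4 of 5 neutrophil genes (-0.40). None of these genes passed the test, and their part in the endothelial values was not tested. Of the 25 further endothelial genes, 25 were positive with all time points (median 1.01) and 24 without week 18 (median 0.54), and 0 passed.

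**Figure D3:**
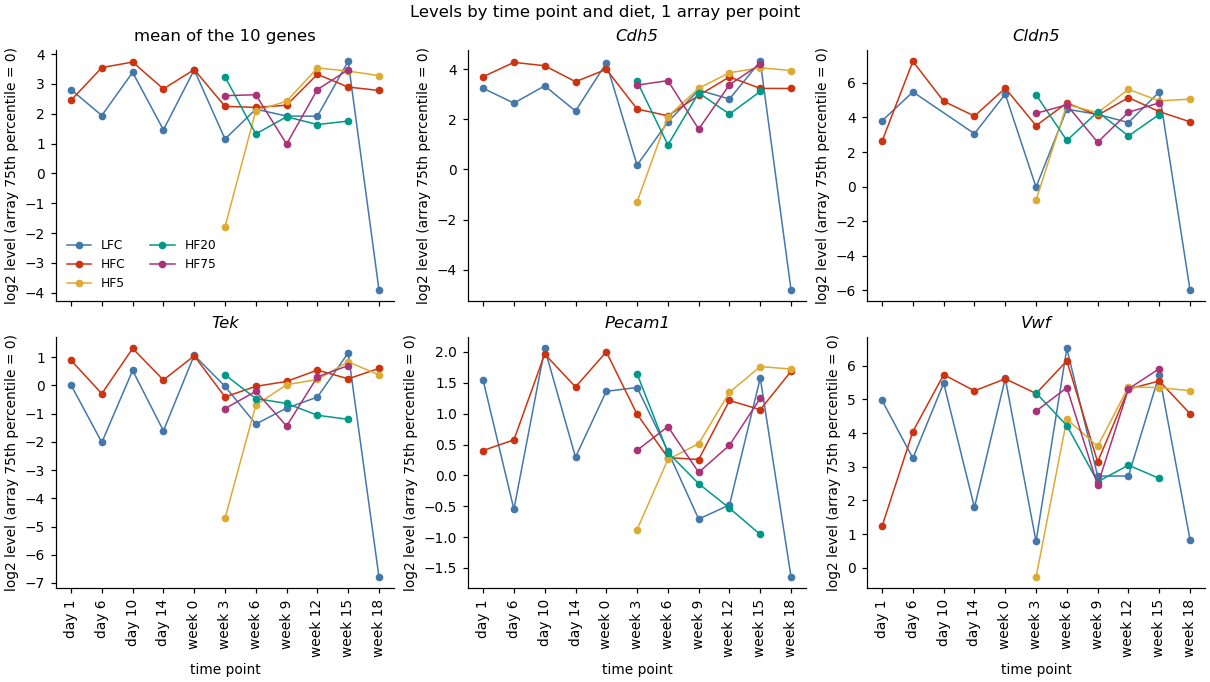
Log2 level by time point and diet for the mean of the 10 genes and for Cdh5, Cldn5, Tek, Pecam1 and Vwf, with each point 1 array and lines joining the arrays of a diet. The diets cross at most times, and the LFC array of week 18 and the HF5 array of week 3 lie lowest in the mean.

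The Kal-1 groups were each set against the HFC arrays of the same weeks, so the 3 comparisons share HFC arrays and are given side by side. For HF5, the lowest dose, all 10 genes had a negative difference with a median of -0.34, from -1.03 ± 0.77 (Vwf) to -0.06 ± 0.57 (Flt1), though after the normexp correction this median lay 0.17 above that of all probes. None of the 10 passed limma's test (adjusted p from 0.966 to 0.995; 0% of 29200 probes passed), and 0 of the 10 stood at an unadjusted p under 0.05, against 5.15% of all probes. The negative median rested on week 3. Without week 3 the median was 0.31, with 7 of 10 positive, and Flt1 (0.61 ± 0.20, p = 0.0178 unadjusted) and Esam (0.50 ± 0.18, p = 0.0294) had the smallest limma p-values, with an adjusted p of 0.866 for both. These were 2 of 10 genes at an unadjusted p under 0.05, against 5.73% of all probes.

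Flt1, the tightly binding VEGF receptor, ranged from 0.55 to 5.77 (median 5.00) on the 6 HF5 arrays and from 2.71 to 5.51 (median 4.50) on the 6 HFC arrays of the same weeks, so the ranges overlapped. HF5 was higher than HFC at 5 of 6 time points, with week 3 the exception (-3.42). Weeks 12, 15 and 18, where HF5 and HFC arrays shared a slide, gave a median difference of the 10 genes of 0.43, with all 10 positive, and 0 passed. Tek was higher in HF5 at only 1 of 6 time points.

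Other lists leaned the same way as the 10 genes in HF5. Negative were all 8 fibroblast genes (median -0.59), 9 of 10 mural genes (-0.54), all 7 genes of the tissue digestion list (-0.72) and all 6 T cell genes (-0.56), while all 6 epithelial genes were positive (1.36). Without week 3 the mural genes turned, with 9 of 10 positive (0.26), fibroblast genes had a median of -0.12, and the tissue digestion (-0.52), T cell (-0.97) and epithelial (1.57) lists kept their sign. None of these genes passed, and their part in the endothelial values was not tested.

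For HF20, all 10 genes were lower than in HFC, from -1.53 ± 0.46 (Vwf) to -0.15 ± 0.39 (Kdr) with a median of -0.60, and the median over all probes was 0.08. After the normexp correction the median of all probes itself moved to -0.39, and that of the 10 genes, -0.47, lay only 0.08 below it, with 5 genes above and 5 below. None of the 10 passed (adjusted p from 0.405 to 0.860, limma; 0% of 30831 probes passed). At an unadjusted p under 0.05 stood 1 of 10 genes, Vwf, against 11.9% of all probes.

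Vwf gave the largest difference of the 10 at this dose. On the HF20 arrays it read 5.19 at week 3, 4.22 at week 6, 2.55 at week 9, 3.05 at week 12 and 2.65 at week 15. The HFC arrays of those weeks read 5.17, 6.14, 3.14, 5.30 and 5.54. The 2 diets were level at week 3 and HF20 was lower at each later week, although the ranges overlap. The limma p was 0.0149 unadjusted (adjusted p = 0.405), and the second Vwf probe gave -1.38 ± 0.47 (p = 0.0236 unadjusted).

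Week 3 went the other way for the whole group. There all 10 genes were higher in HF20 than in HFC (median 1.03), at week 12 all 10 were lower (median -1.69), at week 15, 9 of 10 (median -1.21) and at week 6, 9 of 10 (median -0.77). At week 9 the step was smaller, with 8 of 10 lower (median -0.37). Without week 3 the median was -1.04, 5 of 10 stood at an unadjusted p under 0.05 (Vwf, Tie1, Emcn, Tek and Esam), against 17.6% of all probes, and 0 passed (lowest adjusted p = 0.253, limma). Without week 12 the median was -0.26. Pecam1 on the HF20 arrays was 1.64, 0.37, -0.13, -0.53 and -0.96 at weeks 3, 6, 9, 12 and 15, and 0.99, 0.29, 0.26, 1.21 and 1.06 on the HFC arrays, so that the 2 diets parted after week 9.

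Other markers moved with HF20. All 9 adipocyte genes were positive (median 1.73, 3 at an unadjusted p under 0.05), with list means of 1.68, 0.27, 5.08, 5.54 and 5.11 at weeks 3, 6, 9, 12 and 15 on HF20 and 1.24, -0.16, 4.76, 2.16 and 0.57 on HFC. All 7 genes of the tissue digestion list were negative (median -2.79, 6 at an unadjusted p under 0.05), and T cell genes had a median of -1.81. At weeks 12 and 15, where the adipocyte list was higher on HF20, the Vwf differences were -2.26 and -2.89. At week 6 the adipocyte list was low on both arrays and Vwf was 1.92 lower in HF20. At week 9 it was high on both and Vwf was 0.59 lower. The tissue digestion list still differed, at 4.24 on HF20 and 5.25 on HFC in week 6 and at -0.06 and 2.95 in week 9. Whether these cells or the handling of the tissue have a part in the endothelial values was not tested.

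For HF75, the highest dose, 4 of 10 genes were positive and 6 negative, from -0.70 ± 0.36 (Tie1) to 0.36 ± 0.57 (Flt1), with a median of -0.21 where the median over all probes was -0.01, and after the normexp correction the median of the 10 lay 0.16 above that of all probes. Of 28910 probes 1.02% passed limma's test here, and none of the 10 genes did (adjusted p from 0.433 to 0.895). At an unadjusted p under 0.05 stood 0 of the 10 genes, against 14.6% of all probes. Tie1 read 0.02, -1.40, -1.87, 0.39 and 0.59 on the HF75 arrays of weeks 3, 6, 9, 12 and 15 and -0.30, -0.10, -0.07, 1.05 and 0.68 on the HFC arrays, so that HF75 was lower at 4 of 5 weeks with overlapping ranges. For Cdh5 the 2 probes differed in sign, with 0.33 ± 0.44 for the brighter and -0.39 ± 0.39 for the second.

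In HF75 the low array was week 9, where all 10 genes were lower than in HFC (median -1.45) and Kdr by 2.43. Kdr read 3.42, 2.36, 1.01, 2.50 and 3.52 on the HF75 arrays of weeks 3 to 15, and 2.33, 1.70, 3.44, 3.67 and 2.96 on the HFC arrays. Without week 9 the median difference of the 10 was 0.18, with 6 of 10 positive. The title of the HFC array of week 9 carries the letters WS, as do those of LFC, HF5 and HF20 of that week, and the title of the HF75 array does not. The adipocyte list was at 4.76 to 5.09 on those 4 arrays and at 2.48 on the HF75 array. Some immune lists differed more between the HF75 and the HFC array of week 9. T cell genes were at 2.06 and -3.18, B cell genes at 0.99 and -4.95 and neutrophil genes at 0.93 and -3.71. Macrophage genes differed less, at 0.25 and 0.96, and skeletal muscle genes were at 3.13 and -4.62. The HF75 array was also from another scan than the other 4. The part of these differences in the endothelial values was not tested.

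Other lists in HF75 against HFC leaned as follows over the 5 weeks. Of 8 fibroblast genes 6 were negative (median -0.87, 6 of 8 at an unadjusted p under 0.05 in either direction), of 8 macrophage genes 7 (-0.96, 4 at an unadjusted p under 0.05), and all 6 epithelial genes (1.54, 3 at an unadjusted p under 0.05), all 5 neutrophil genes (0.94) and all 5 B cell genes (0.29) were positive. Among the fibroblast genes Dpt passed the test, with -2.43 ± 0.38 (adjusted p = 0.0393, limma). Neither this call nor any other probe passed without week 3, without the time point block, with the scan date as block or with all 38 arrays in 1 fit. In the further endothelial, arterial, venous and lymphatic lists 0 genes passed in any of the 3 comparisons, with 0 to 3 genes of a list at an unadjusted p under 0.05. The shares of all probes there were 5.15% for HF5, 11.9% for HF20 and 14.6% for HF75. For HF75, 3 of 5 lymphatic genes stood there, and 4 of 5 were negative (median -0.80). For HF20, 2 of 6 venous genes did, with all 6 negative (median -1.35).

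**Figure D4:**
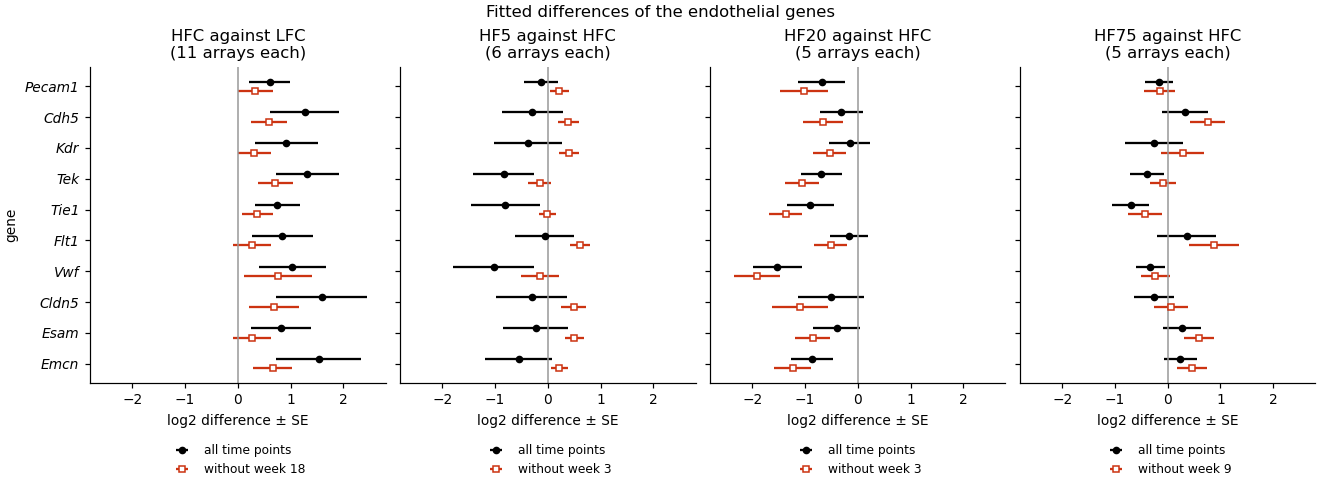
Fitted log2 difference of each endothelial gene (points, with bars for the standard error) in 4 comparisons, with all time points (black) and without 1 time point, week 18, 3, 3 or 9 in the order of the panels (red squares). Without week 18 the HFC differences shrink to 0.26 to 0.76, and without week 3 most HF5 differences turn positive.

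The time course allows a comparison of late arrays (weeks 3 to 18) with early ones (days 1 to 14 and week 0) over LFC and HFC. All 10 genes were lower late, from -1.48 ± 1.04 (Cldn5) to -0.20 ± 0.73 (Vwf), with a median of -1.08 where the median over all 30259 probes was 0.01. After the normexp correction the median of the 10 was 0.71 below that of all probes, with 9 of 10 genes below it. None passed (adjusted p = 1.00, limma), against 0.0033% of all probes. At an unadjusted p under 0.05 stood 2 of 10 genes, Esam (-1.35 ± 0.59, p = 0.0311) and Kdr (-1.44 ± 0.67, p = 0.0408), and 4.32% of all probes. Without week 18 the median was -0.52, with 9 of 10 negative, and without week 3, day 14 and week 18 it was -0.62. Other lists were lower late too: 8 of 9 adipocyte genes (median -1.78, 3 at an unadjusted p under 0.05) and all 4 genes of high endothelial venules (-1.51, 2 of them). So were all 4 erythroid (-1.02), 5 skeletal muscle (-0.93) and 5 B cell genes (-0.78), while 6 of 8 macrophage genes were higher (0.61). Of these, 0 passed, and their part was not tested. Time on diet, the age of the mice and the slide cannot be told apart in this comparison.

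On the HFC arrays alone, which hold none of the 4 arrays set apart above, Cdh5 ranged from 3.51 to 4.28 (median 4.00) on the 5 early arrays and from 2.14 to 3.70 (median 3.10) on the 6 late ones. The ranges overlapped between 3.51 and 3.70. The difference was -0.98 ± 0.33 (limma p = 0.0108 unadjusted, adjusted p = 0.399). Kdr ranged from 3.22 to 5.09 early and from 1.70 to 3.67 late, a difference of -1.15 ± 0.46 (p = 0.0273 unadjusted). These were 2 of 10 genes at an unadjusted p under 0.05, against 11.1% of all probes in this fit. Emcn, at 3.66 to 4.82 early and 2.76 to 4.16 late, and Tie1, at 0.40 to 1.46 early and -0.30 to 1.05 late, had p-values of 0.0574 and 0.0521. Vwf alone of the 10 had a higher fitted level late on the HFC arrays (0.61), with its low value of day 1 among the early ones. The early arrays also hold the saturated Vwf spot of week 0, a lower bound. Its medians were 5.25 early and 5.24 late. Adipocyte genes were lower late as well, 9 of 9 with a median of -1.46.

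The difference between HFC and LFC was then itself compared between late and early times. It was larger late for all 10 genes, by 0.19 ± 1.21 (Flt1) to 1.83 ± 1.77 (Cldn5) with a median of 0.76, where the median over all 29215 probes was -0.52, and after the normexp correction the order turned, with the median of the 10 genes 0.40 below that of all probes. None passed limma's test (adjusted p from 0.789 to 0.967; 0% of all probes passed), and 0 of 10 stood at an unadjusted p under 0.05, against 4.47% of all probes. Without week 18 the median was -0.34 with 7 of 10 negative. The median over all probes was then -0.63, and 8 of the 10 genes still lay above it. Leaving out week 3, day 14 and week 18 together gave a median of -0.24 for the 10 genes. With the normexp correction 4388 of the 29215 probes passed and 0 of the 10 genes did.

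Other lists had larger values in this comparison. All 6 T cell genes (median 3.86, 5 at an unadjusted p under 0.05), all 5 B cell genes (3.47), all 7 genes of the tissue digestion list (2.16) and all 8 fibroblast genes (1.83) were on the positive side, and 0 of them passed. Without week 18 the medians were 4.00 for T cell, 3.93 for B cell, 2.08 for tissue digestion and 0.21 for fibroblast genes. Their part in the endothelial values was not tested.

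Among themselves the 10 genes rose and fell together over the arrays. Over the 45 pairs of genes, Pearson's r over the 38 arrays ranged from 0.52 (Pecam1 with Cldn5) to 0.94 (Cdh5 with Esam), with a median of 0.85. Without the 4 arrays set apart the median over 34 arrays was 0.67, with a range from 0.11 (Kdr with Vwf) to 0.92 (Cdh5 with Flt1). These values describe arrays that share a scaling and slides. Against the mean of the other members over the 34 arrays, Esam had r = 0.95 and Emcn 0.91, while Vwf had 0.52 and Cldn5 0.63. So the junction gene Esam and the mucin Emcn tracked the group most closely, and the clotting factor Vwf least.

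All 10 genes had a lower median on the arrays where adipocyte genes were high, by the widest steps for Vwf and Pecam1. The adipocyte list separated the 34 arrays into 10 with a mean level above 4 (4.63 to 5.93) and 24 with a level up to 3.04. On the 10 arrays Vwf ranged from 1.23 to 4.04 (median 2.88), and on the 24 from 2.45 to 6.51 (median 5.33). Pecam1 ranged from -0.96 to 0.58 (median -0.31) on the 10 and from 0.05 to 2.06 (median 1.30) on the 24. Cdh5 had medians of 3.09 and 3.45, Kdr of 3.22 and 3.38, Flt1 of 4.27 and 4.85 and Tek of -0.52 and 0.27. Emcn had 2.53 and 3.87 and Esam 1.63 and 2.54. The ranges of the 2 sets overlapped for each of the 10 genes. The 10 arrays were LFC day 6, week 9 and week 12, HFC day 1, day 6 and week 9, HF5 week 9 and HF20 weeks 9, 12 and 15, so they were spread unevenly over diets. This split was drawn from the data after seeing it and has no test, and the part of adipocyte RNA in it was not tested. The tissue digestion list was low on the same arrays, from -1.39 to 4.00 (median 0.09) on the 10 against 3.79 to 5.38 (median 4.82) on the 24, and its part was not tested either.

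**Figure D5:**
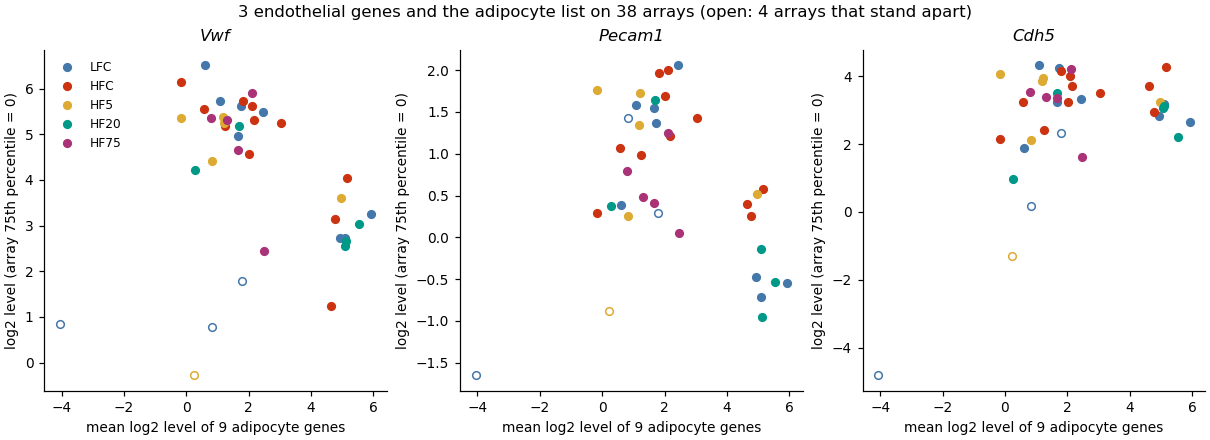
Log2 level of Vwf, Pecam1 and Cdh5 (vertical) against the mean log2 level of 9 adipocyte genes (horizontal) on 38 arrays, coloured by diet, with open points for the 4 arrays set apart. Vwf and Pecam1 lie lower on the 10 arrays with an adipocyte level above 4, while the Cdh5 values of both sets of arrays overlap widely.

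The genes outside the 10 whose levels were most like their mean were sought among 20145 genes that were detected on 50% of the arrays or more. Over the 38 arrays these were Notch3, Adcy4, Uaca, Sox7, Fgd5, Tspan7, Sox17, Tmem88, Ptprb and Apbb2, with Pearson's r from 0.97 to 0.95, where the median over all ranked genes was -0.07. Sox7 and Sox17 are transcription factors of endothelium, Ptprb is the phosphatase that acts on Tek, and Notch3 is a receptor of mural cells. Without the time points week 3 and day 14, 6 of these remained among the first 10. Over the 34 arrays the order changed further, with She (r = 0.95), Nrp2 (0.95), Tal1 (0.92), Adcy4 (0.92) and Sox17 (0.92) first, and Notch3 at place 36. Tal1 had a Pearson's r of 0.06 and a Spearman's rho of 0.74 over the 38 arrays, so its place by Pearson's r depended on which arrays were kept.

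The lists differed in how closely they ran with the 10 genes. The median r of the 25 further endothelial genes with the mean of the 10 was 0.87 over 38 arrays and 0.74 over 34, and that of 7 arterial genes 0.84 and 0.73. For the 17 ligands and signalling partners it was 0.51 and 0.57, for 6 venous genes 0.61 and 0.73, for 5 lymphatic genes 0.40 and 0.34, and for 4 genes of high endothelial venules 0.07 and 0.19. The 10 mural genes had 0.82 over 38 arrays and 0.53 over 34, and the 8 fibroblast genes 0.76 and 0.20. Macrophage genes, which the series text names as the material, had 0.07 and 0.02. Adipocyte genes had 0.26 and -0.32, genes of the tissue digestion list 0.41 and 0.55, and neutrophil genes -0.27 and 0.44. Fibroblast genes ran closer than venous or lymphatic genes over 38 arrays but not over 34. These are descriptions over arrays and carry no p.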

How the data were processed

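RNA of subcutaneous SVCs was hybridised to Agilent arrays of 1 colour. The authors deposited scanner intensities made by Feature Extraction (10.5.1.1 per the file headers, 9.1 per the submitters' processing notes), which subtracts background within an array and does not normalize between arrays. A second deposited table, of log2 ratios (fold changes) to LFC, served here for its probe annotation alone. Intensities (gProcessedSignal) were divided by the 75th percentile of the array and put on the log2 scale. Outlier spots were dropped, duplicate spots averaged, and values not well above background raised to the lowest level of the array that was. A gene was described by its probe with the highest mean. Python 3.11.15, limma 3.58.1 and R 4.3.3 were used.

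Comparisons used limma (lmFit, eBayes) with the time point as a block (late against early: diet as covariate), for probes detected (well above background) in 50% or more of the arrays in 1 of the groups, with Benjamini-Hochberg adjustment over all probes tested and a threshold of 0.05. Of 40 arrays 38 were used, the other 2 having conflicting labels. The number of arrays limits the precision. The named genes were the 10 members, at most 4 genes past the threshold per list and comparison, and the 10 genes best correlated with the members' mean. The members, lists and tests were chosen with earlier results of these data known. Of the list genes, Hspa1b has no probe on the array. The code was tested on simulated data. Alternatives were a normexp background correction (offset 50), quantile normalization, unraised dim values, no filter, the mean over probes, no block, 1 fit of all arrays, slide or scan date as block, array weights, the methods' t-test and leaving out time points. The scan date block and the removal of several time points together other than week 3 with day 14 were added after seeing the data.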

Additional observations from a re-analysis of the deposited data

Results flagged for a closer look

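In the diets with 5 or 6 arrays, 33 sets of values (the 10 genes and their mean in HF5, HF20 and HF75) were examined with Dixon's test for a value far from the rest, and 12 stood out where chance gives about 5%. The sets share arrays and are not independent.

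The HF5 array of week 3 was the lowest for 9 of these. Its mean of the 10 genes was -1.79, against 2.10 to 3.53 on the other 5 HF5 arrays. Cdh5 was -1.30 (others 2.11 to 4.06), Kdr -1.92 (2.14 to 4.29), Tek -4.70 (-0.70 to 0.84) and Tie1 -5.07 (-0.49 to 1.05). Vwf was -0.27 (3.61 to 5.37), Cldn5 -0.78 (4.28 to 5.62), Esam -2.31 (1.40 to 3.60) and Emcn -1.20 (2.91 to 4.22).

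The HF20 array of week 3 was high for Tie1, at 0.67 against -1.16 to -0.72 on the other 4 arrays, and for Emcn, at 3.76 against 2.14 to 2.41. The HF75 array of week 9 was low for Cldn5, at 2.57 against 4.24 to 4.85.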

How the results depend on the processing

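None of the 10 genes passed the threshold under any of 115 alternatives over the 6 comparisons, and the lowest adjusted p of a member was 0.135 (Vwf, HF20 against HFC, normexp). Over all probes these alternatives called up to 4388 of 29215 in the interaction (normexp, 0 in the main analysis), up to 1319 of 28910 for HF75 and 132 of 30259 for late against early (both with array weights), and 0 in the other 3 comparisons. The median difference moved by more than the median standard error of the genes in these cases, and the cause was not tested. For HFC against LFC (0.98) it was 0.27 with array quality weights and 0.32 without week 3, day 14 and week 18. For HF5 against HFC (-0.34) it was 0.43 with the slide as block, 0.31 without week 3 and day 14 and 0.33 without weeks 3 and 9. For HF20 against HFC (-0.60) it was -1.04 without week 3 and day 14 and -1.19 without weeks 3 and 9. The scan date as block left out week 3 for HF20 and gave the same -1.04, with 4 arrays a side. For HF75 against HFC (-0.21) it was 0.33 with array weights and 0.15 with the scan date as block, which left 2 arrays a side. Leaving out 1 time point gave 0.48 to 1.16 for HFC against LFC, -0.60 to 0.31 for HF5, -1.04 to -0.26 for HF20, -0.35 to 0.18 for HF75, -1.37 to -0.52 for late against early and -0.34 to 1.27 for its interaction with diet. Of 660 differences of single genes under the other alternatives 66 changed sign, 35 of them for HF5, and of 490 with 1 time point left out 25 did, none of them called. The methods' t-test of HFC against LFC gave 0 calls, with 414 probes at an unadjusted p under 0.05. Normexp moved the median of all probes in the interaction from -0.52 to 0.70. The mean level of the 10 genes moved by over 1 SD of the array's diet on 1 of 38 arrays (HFC week 3) with normexp. It did so on 0 with quantile normalization. The SDs of LFC (2.08) and HF5 (2.02) include their low arrays. With normexp the mean moved from -3.90 to -2.39 on LFC week 18 and from -1.79 to -0.91 on HF5 week 3. On LFC week 3 it moved from 1.15 to 0.17. Quantile normalization moved it from 1.46 to 2.50 on LFC day 14. No paired analysis was possible by replicate number, because these numbers only name arrays in accession order. The diets were paired by time point instead; since the arrays are balanced, leaving out that block cannot move a difference where no value is missing. The probes called for HF75 against HFC fell from 294 to 0 in the fit without this block, and to between 0 and 205 with 1 time point left out. The slide as block could not be fitted for HF20 and HF75, which share no slide with HFC.

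Limits: each time point has 1 array per diet, and the smallest comparisons have 5 arrays a side. Signal over background had a median of 4.86 (1.53 to 55.4), and the dim LFC array of week 3 gives bounds for 6 of 10 genes.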

Other observations

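Both arrays of week 18 whose title and source label name different Kal-1 doses were left out of every comparison. On the array titled HF75 and labelled HF20, which had 21710 outlier spots, the mean of the 10 genes was 1.72, with Cdh5 at 2.17, Vwf at 3.25 and Tek at -0.81. On the array titled HF20 and labelled HF75, with 52 outlier spots, the mean was 3.09, with Cdh5 at 3.17, Vwf at 5.31 and Tek at 0.91.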
